A study of Mus musculus with 10 samples.

Results

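The genes described here are the transcription factor p53 (Trp53), its inhibitors Mdm2 and Mdm4, and 7 genes that p53 induces, namely Ccng1, Perp, Fas, Gadd45a, Zmat3, Sesn1 and Sesn2, in hematopoietic stem cells (HSCs) of aged mice with and without the aryl hydrocarbon receptor (AHR). Members were taken by gene symbol in the platform annotation, from probe sets listed with 1 symbol only. Of the 10 genes, 8 had a probe set of their own, out of 22180 genes measured in that way. Trp53 had none in the annotation used here, and the probe set of Gadd45a is listed with another gene as well, so neither was analysed here. The question was whether other p53 targets moved with Perp. The study lists Perp as down-regulated in HSCs of old AHR-KO mice and of old mice lacking AHR only in hematopoietic cells. Arrays of the latter mice were not used here. As that list was drawn in part from the AHR-KO arrays used here, the direction of Perp is no independent evidence.

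HSCs were sorted from the bone marrow of 5 AHR-KO mice and 5 WT mice, all C57BL/6J and 18 months old, with no treatment named in the labels. The AHR-KO mice carry a knockout in every cell type, marrow stroma included, so that effects inside HSCs and effects of their surroundings cannot be told apart. The paper's methods describe a sort of lineage-negative, CD48- and CD150+ (SLAM+) cells and 1 array for each animal. They were written for its arrays of conditional AHR knockout mice, and the paper took these AHR-KO arrays from a separate deposit. Details from the methods may therefore not hold for the arrays used here. RNA was amplified from few cells and hybridized to Affymetrix Mouse Gene 2.0 ST arrays.

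p53 is a sensor of DNA damage and other stress that switches on genes for cell cycle arrest, apoptosis, DNA repair and antioxidant defense. In unstressed cells MDM2, an E3 ubiquitin ligase, marks p53 for degradation, while MDM4 binds and blocks its activation domain. MDM2 is itself a p53 target, which closes a negative feedback loop. In HSCs p53 is known to maintain quiescence and to set the response to irradiation. p53 is regulated largely at the protein level, which arrays do not measure.

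All values below are log2(signal + 16) of the deposited intensities, a scale that understates the change of dim genes, and differences are AHR-KO minus WT. The marker genes of HSCs were detected in both groups, with Hlf at 9.77 in AHR-KO and 10.04 in WT and Kit at 9.75 in AHR-KO and 9.78 in WT. Of 14 HSC markers measured, 1 was higher and 13 were lower in AHR-KO, against 48.9% of all genes that were lower, and none had an unadjusted p under 0.05. Their median difference was -0.24, with summed signals of 2582 to 6278 in AHR-KO and 3992 to 6398 in WT. The neutrophil granule genes Mpo (11.90 in AHR-KO, 11.97 in WT) and Elane (10.93 in AHR-KO, 11.04 in WT) were also bright. Their list summed to 4274 to 30561 in AHR-KO and 6507 to 17020 in WT. The leading axis of variation, 30.6% of the variance, set 4 arrays apart, AHR-KO replicates 1 and 2 with WT replicates 1 and 5, so that this split crosses genotype, and member differences are therefore also given within this set of 4 and within the other 6. The neutrophil score, the mean deviation of the list in log2, was -1.71 to -0.28 in the set of 4 and -0.062 to 2.01 in the set of 6. Monocyte and dendritic genes scored -1.26 to -0.17 in the set of 4 and 0.20 to 0.67 in the set of 6. Stromal and endothelial genes scored -0.77 to -0.20 in the set of 4 and 0.039 to 0.73 in the set of 6. HSC markers went the other way, at 0.04 to 0.54 in the set of 4 and -0.63 to 0.00072 in the set of 6. The scores of the other marker lists overlapped between the sets. Of 10 mast cell and basophil genes, 3 passed the study threshold given below, all of them lower in AHR-KO, against 0.523% of all genes. Their list summed to 812 to 3153 in AHR-KO and 1922 to 4682 in WT. Of 12 stromal and endothelial genes, Col1a2 (-0.84) and Kdr (0.70) passed it, with sums of 639 to 3350 in AHR-KO and 1048 to 4358 in WT. The median difference was 0.41 for 10 erythroid genes, with sums of 2800 to 9672 in AHR-KO and 2995 to 8121 in WT, and 0.43 for 9 T and NK cell genes, with sums of 337 to 2232 in AHR-KO and 384 to 1184 in WT, with no gene of either list at an unadjusted p under 0.05. The part of these other cells in the member values was not tested. The probe set of Ahr, the targeted gene, averaged 5.97 ± 0.52 in AHR-KO and 5.74 ± 0.74 in WT (SD, n = 5 each) and does not separate the genotypes. Where it lies relative to the deleted part of the gene was not determined, and it does not check the labels.

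The promoters of the members are shown because AHR, with its partner ARNT, binds DNA at a core of the letters GCGTG. Windows of 250 bases before to 50 bases after each start were taken from RefSeq (GRCm38.p6). Of the 8 members, 6 had a window, Mdm4 and Sesn1 had a pair each, and Perp and Zmat3 had none. The core, on either strand, was found in 4 of the 8 windows, and it occurs in 32.4% of all 32851 windows. Those 4 windows are chr11:40755237-40755536 for Ccng1 (minus strand), chr19:34290409-34290708 for Fas (plus strand), chr10:117710709-117711008 for Mdm2 (minus strand) and chr10:41887189-41887488 for Sesn1 (plus strand). They are printed from 5′ to 3′ along the gene, and capitals mark GCGTG or, where the core is on the opposite strand, CACGC.
Ccng1: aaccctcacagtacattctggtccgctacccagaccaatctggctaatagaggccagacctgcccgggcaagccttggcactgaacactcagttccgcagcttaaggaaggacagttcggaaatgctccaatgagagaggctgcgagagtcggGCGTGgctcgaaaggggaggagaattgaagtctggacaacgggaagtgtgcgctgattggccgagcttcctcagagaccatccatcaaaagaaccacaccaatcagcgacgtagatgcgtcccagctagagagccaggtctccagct
Fas: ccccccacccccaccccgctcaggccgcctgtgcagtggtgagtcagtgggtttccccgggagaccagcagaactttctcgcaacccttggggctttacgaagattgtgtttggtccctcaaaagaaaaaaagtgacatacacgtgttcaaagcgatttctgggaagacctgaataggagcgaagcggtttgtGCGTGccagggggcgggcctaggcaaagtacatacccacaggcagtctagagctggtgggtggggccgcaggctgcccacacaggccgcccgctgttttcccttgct
Mdm2: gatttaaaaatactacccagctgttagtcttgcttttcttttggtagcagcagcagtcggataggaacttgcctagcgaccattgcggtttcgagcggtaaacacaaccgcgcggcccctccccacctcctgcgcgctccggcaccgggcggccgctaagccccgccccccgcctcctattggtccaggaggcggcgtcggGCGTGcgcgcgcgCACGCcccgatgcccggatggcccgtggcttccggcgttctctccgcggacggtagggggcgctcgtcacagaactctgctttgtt
Sesn1: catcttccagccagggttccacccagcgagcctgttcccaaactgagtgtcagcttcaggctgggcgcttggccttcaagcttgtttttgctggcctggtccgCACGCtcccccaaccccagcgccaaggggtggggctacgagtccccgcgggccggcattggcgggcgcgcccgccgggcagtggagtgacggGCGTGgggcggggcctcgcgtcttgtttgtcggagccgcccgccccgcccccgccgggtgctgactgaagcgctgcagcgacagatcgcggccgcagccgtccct
The core starts 97 bases before the start in Ccng1 and 57 before it in Fas. In Mdm2 it lies at 49 and, on the opposite strand, at 36 bases before the start, and in Sesn1 at 55 and, on the opposite strand, at 147 bases before it. No pair of matches overlaps. The consensus decamer of p53, which occurs in 8.36% of all windows, was found in 3 of these 4, those of Ccng1, Mdm2 and Sesn1, and in no other member window. A match of letters is not a bound site, and AHR binding was not measured.

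Between the genotypes the members had differences of both signs. Of the 8, 4 were higher in AHR-KO (Mdm4, Ccng1, Fas and Zmat3) and 4 were lower (Mdm2, Perp, Sesn1 and Sesn2), while 48.9% of all genes were lower. Their median difference was 0.033, against 0.004 over all genes. The methods name a change of 1.5-fold with a p under 0.05. Taken here as a 1.5-fold change of the signal plus 16 with an unadjusted limma p, and called the study threshold, it was reached by none of the 8 and by 0.523% of all genes. With the fold of the mean signals instead, Perp reached it, at a mean signal of 22.6 ± 9.47 in AHR-KO and 37.7 ± 10.9 in WT (SD, n = 5 each), a 1.67-fold lower level, as did 1.93% of all genes. At an unadjusted p under 0.05 alone, limma called 3 of the 8, Perp and Sesn1 lower and Ccng1 higher, against 3.74% of all genes. By direction, 2 of the 8 were called lower, against 1.93% of all genes, and 1 was called higher, against 1.81%. The methods' t-test called 2, against 4.08% of all genes. After Benjamini-Hochberg adjustment in limma the p was 0.998 for each member, and no gene of the array passed 0.05. With the array set as a block, limma called 4 of the 8 at an unadjusted p under 0.05, Sesn2 being the one added, against 5.65% of all genes in that fit. Apart from the count called higher, these counts at a p under 0.05 include Perp, which the study had already listed as lower from these arrays among others. Besides Perp, limma called Sesn1 and Ccng1, with Sesn2 added under the block, and the methods' t-test called Ccng1. In none of the 8 were the groups free of overlap, which was so for 0.681% of all genes.

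**Figure D1:**
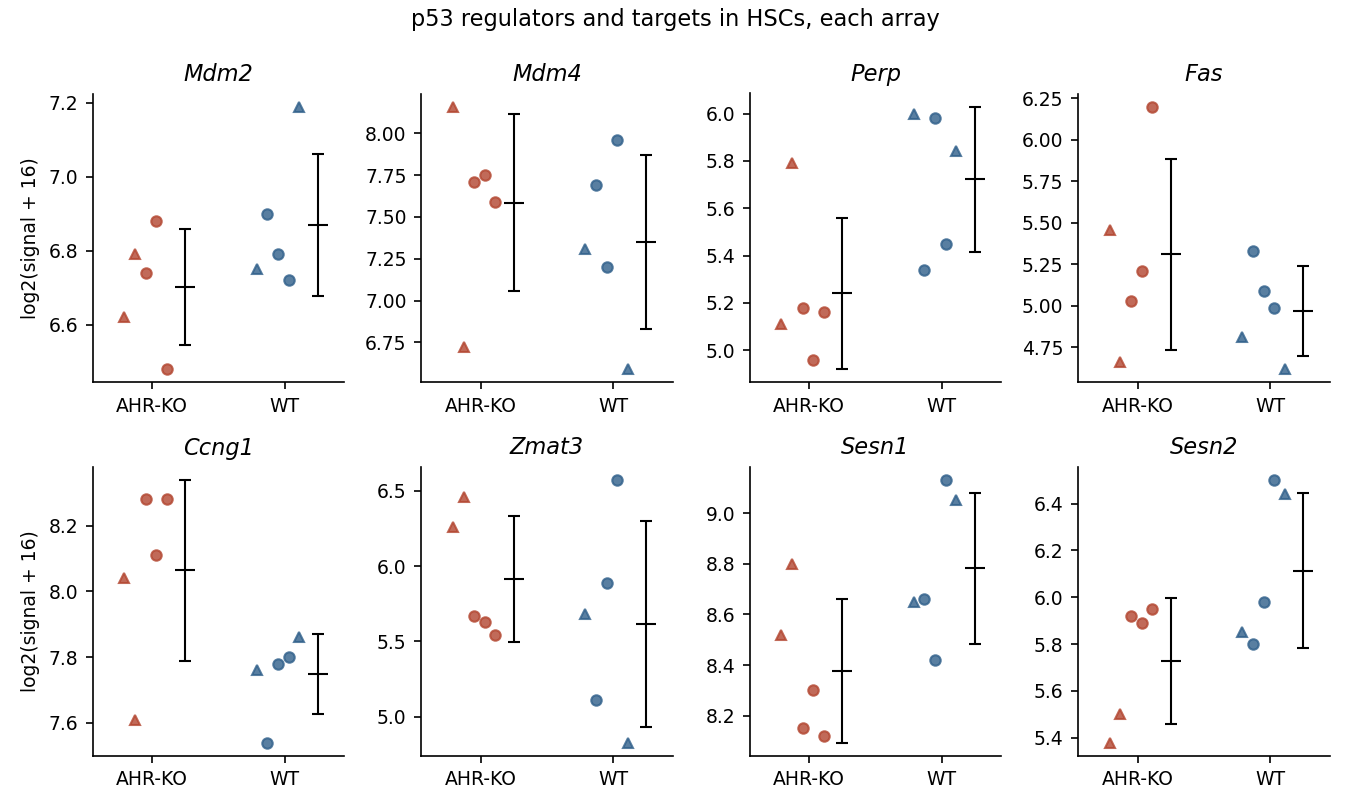
Log2(signal + 16) of the 8 members in each array, AHR-KO on the left in red and WT on the right in blue. Triangles are the set of 4 arrays (AHR-KO 1 and 2, WT 1 and 5) and circles the set of 6, and black bars give the mean ± SD of 5 arrays. The groups overlap in all 8 panels, least in Perp and Ccng1, where 4 AHR-KO arrays lie beyond the WT range.

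Neither inhibitor of p53 passed a test. Mdm2 read 6.62, 6.79, 6.74, 6.88 and 6.48 in AHR-KO replicates 1 to 5, against 6.75, 6.90, 6.79, 6.72 and 7.19 in WT replicates 1 to 5. The groups shared a narrow stretch of values, with AHR-KO replicates 1 and 5 below every WT array and WT replicates 2 and 5 above every AHR-KO array. The difference was -0.17 (SE 0.13, 95% interval -0.44 to 0.11, limma p = 0.205, exact permutation p = 0.167). Mdm4 varied far more, at 8.16, 6.72, 7.71, 7.75 and 7.59 in AHR-KO and 7.31, 7.69, 7.20, 7.96 and 6.59 in WT. Each group held arrays from both ends of that range. The Mdm4 difference of 0.24 (SE 0.29, interval -0.39 to 0.86, limma p = 0.429, exact permutation p = 0.476) was smaller than the SD within each group, 0.53 in AHR-KO and 0.52 in WT.

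Of the apoptosis genes, Perp was lower at an unadjusted p under 0.05 and Fas passed no test. Perp is a membrane protein of the PMP22 family that serves as an effector of p53-dependent apoptosis and as a component of desmosomes in epithelia. Its values were 5.11, 5.79, 5.18, 4.96 and 5.16 in AHR-KO, against 6.00, 5.34, 5.98, 5.45 and 5.84 in WT. All AHR-KO arrays but replicate 2 lay below the lowest WT array, and replicate 2 lay between the WT values. The difference was -0.48 (SE 0.18, interval -0.88 to -0.08, a 1.4-fold lower level, limma p = 0.0227, exact permutation p = 0.0476), and 2.52% of all genes lay as far from 0, 1.49% on the lower side. Within the set of 4 Perp averaged 5.45 in AHR-KO and 5.92 in WT, a difference of -0.47, and within the set of 6 it averaged 5.10 in AHR-KO and 5.59 in WT, a difference of -0.49 (exact permutation p = 0.1, the smallest that 3 against 3 arrays allow). Without AHR-KO replicate 2 the difference was -0.62 (limma p = 0.00277, exact permutation p = 0.0159) and passed the study threshold. The limma p exceeded 0.05 when an array with a low AHR-KO or high WT value was dropped, at 0.0583 for AHR-KO replicate 4 (exact permutation p = 0.0952), 0.0567 for WT replicate 1 (exact permutation p = 0.103) and 0.0576 for WT replicate 3 (exact permutation p = 0.103).

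Perp was dim on these arrays. In signal units it ranged over 15.2 to 39.2 in AHR-KO and 24.6 to 47.8 in WT, with an array median of 24.65. Of 1105 olfactory-receptor genes, which HSCs are not expected to use and which serve as a measure of background, 5.16% read at or above the mean of Perp. Epithelial and desmosomal genes mark another cell type in which Perp is abundant. Of 12 measured, 5 were higher and 7 lower in AHR-KO, none at an unadjusted p under 0.05, with a median of -0.023 and summed signals of 713 to 1244 in AHR-KO and 829 to 1114 in WT. In bulk RNA fewer Perp-expressing cells and less Perp RNA per cell cannot be told apart.

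Fas, the death receptor at the cell surface, read 5.46, 4.66, 5.03, 5.21 and 6.20 in AHR-KO and 4.81, 5.33, 5.09, 4.99 and 4.62 in WT. AHR-KO replicates 1 and 5 exceeded every WT array, and the other 3 lay within the WT range. The Fas difference was 0.34 (SE 0.25, interval -0.20 to 0.89, limma p = 0.195, exact permutation p = 0.278). It was 0.34 within the set of 4 and 0.34 within the set of 6, but 0.12 without AHR-KO replicate 5, the brightest array for Fas. Fas was dim as well, with 10% of olfactory-receptor genes at or above its mean.

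**Figure D2:**
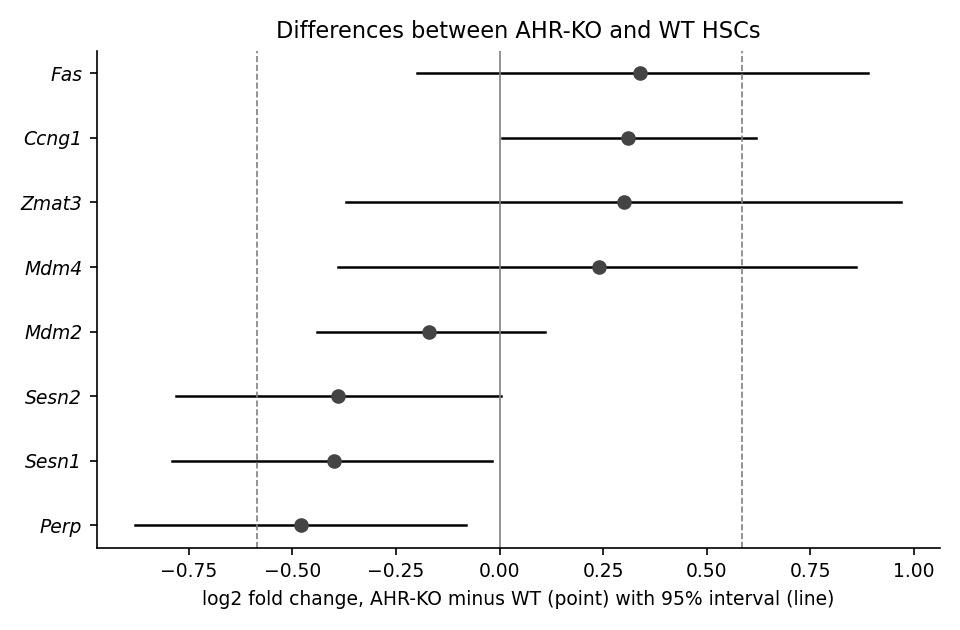
Difference between AHR-KO and WT (log2, x axis) for each member (rows), as the estimate over all 10 arrays (point) with its 95% interval from limma (line), and dashed lines at a change of 1.5-fold either way. The intervals of Perp, Sesn1 and Ccng1 exclude 0, that of Sesn2 ends at 0.0042, and no point lies beyond a dashed line.

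The arrest and damage genes Ccng1 and Zmat3 had positive differences, and only that of Ccng1 had an interval above 0. Ccng1, cyclin G1, is a p53 target that brings a phosphatase to MDM2. It read 8.04, 7.61, 8.28, 8.11 and 8.28 in AHR-KO, against 7.76, 7.54, 7.78, 7.80 and 7.86 in WT. All AHR-KO arrays but replicate 2 lay above every WT array. The difference was 0.31 (SE 0.14, interval 0.0063 to 0.62, a 1.24-fold higher level, limma p = 0.0462, exact permutation p = 0.0476). Within the set of 6 Ccng1 averaged 8.22 in AHR-KO and 7.70 in WT, a difference of 0.52 (exact permutation p = 0.1), and within the set of 4 it averaged 7.82 in AHR-KO and 7.81 in WT. With an array left out, limma gave p-values of 0.00342 to 0.113 and the exact permutation test 0.00794 to 0.111. The limma p stayed under 0.05 only when the array dropped was AHR-KO replicate 2 or WT replicate 5, and exceeded it for each of the other 4 AHR-KO arrays and the other 4 WT arrays.

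Zmat3 encodes a zinc-finger protein that binds RNA and is induced by p53. Its values of 6.26, 6.46, 5.67, 5.63 and 5.54 in AHR-KO and 5.68, 5.11, 5.89, 6.57 and 4.83 in WT overlapped almost fully. The difference of 0.30 (SE 0.31, interval -0.37 to 0.97, limma p = 0.351, exact permutation p = 0.421) was not larger than the spread in WT (SD 0.68). Within the sets the sign of the difference turned. Zmat3 averaged 6.36 in AHR-KO and 5.25 in WT in the set of 4, a difference of 1.11, and 5.61 in AHR-KO and 5.85 in WT in the set of 6, a difference of -0.24.

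Sesn1 was lower at an unadjusted limma p under 0.05, and Sesn2 lay just short of it. Sestrins are stress-induced proteins that restrain the growth kinase complex mTORC1 and protect cells from oxidants. Sesn1 read 8.52, 8.80, 8.15, 8.30 and 8.12 in AHR-KO, against 8.65, 8.66, 8.42, 9.13 and 9.05 in WT. AHR-KO replicates 3, 4 and 5 lay below every WT array, while replicates 1 and 2 lay within the WT range. The difference was -0.40 (SE 0.18, interval -0.79 to -0.018, a 1.32-fold lower level, limma p = 0.0415, exact permutation p = 0.0794). The methods' test gave 0.0623 and limma with the replicate number as a block 0.0571, neither of them under 0.05. It was -0.19 in the set of 4 and -0.54 in the set of 6 (exact permutation p = 0.1). With an array left out, limma gave p-values of 0.0118 to 0.106 and the exact permutation test 0.0397 to 0.151. The limma p exceeded 0.05 when the array dropped was any of replicates 3, 4 and 5 in AHR-KO, or 4 and 5 in WT.

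Sesn2 read 5.38, 5.50, 5.92, 5.89 and 5.95 in AHR-KO and 5.85, 5.80, 5.98, 6.50 and 6.44 in WT. AHR-KO replicates 1 and 2 lay below every WT array and 3 WT arrays lay above every AHR-KO array. The difference of -0.39 (SE 0.18, interval -0.78 to 0.0042, limma p = 0.0521, exact permutation p = 0.127) was close in size to that of Sesn1. It was larger in the set of 4, at -0.71, than in the set of 6, at -0.17, the reverse of Sesn1. Sesn3, the sestrin known to be driven by FOXO factors, had a difference of -0.23 (limma p = 0.43, exact permutation p = 0.5), which was -0.49 without AHR-KO replicate 1 and -0.61 within the set of 6.

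Across the 10 arrays no member followed Perp closely, and the furthest from 0 ran against it. Over 7 relations, Pearson's r with Perp was -0.74 for Mdm4 (permutation p = 0.0149, Spearman's rho -0.71, permutation p = 0.0264). For Fas it was -0.63 (permutation p = 0.0384, rho -0.70, permutation p = 0.0298), and for Ccng1 -0.63 (permutation p = 0.0562, rho -0.61, permutation p = 0.0668). Adjusted over all genes of the array, these p-values were 0.646 for Mdm4, 0.646 for Fas and 0.649 for Ccng1. An unadjusted p under 0.05 was found for 7.62% of all genes, and none passed after adjustment.

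The remaining relations were weaker. For Sesn1 r was 0.50 (permutation p = 0.143, rho 0.49, permutation p = 0.154, adjusted p = 0.729), and for Mdm2 0.36 (permutation p = 0.318, rho 0.32, permutation p = 0.367, adjusted p = 0.825). For Sesn2 r was 0.22 (permutation p = 0.541, rho 0.27, permutation p = 0.448, adjusted p = 0.908), and for Zmat3 -0.032 (permutation p = 0.928, rho 0.13, permutation p = 0.734, adjusted p = 0.988). A gene that differs by genotype correlates with Perp through genotype alone, so r was also taken over deviations from each group's mean. It was then -0.79 for Mdm4 (permutation p = 0.0061), -0.53 for Fas (permutation p = 0.111), -0.37 for Ccng1 (permutation p = 0.302) and 0.17 for Sesn1 (permutation p = 0.645). These p-values are unadjusted. The deviations were shuffled freely over all arrays, without regard to the group means removed, so these p-values tend to be too small.

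Without WT replicates 1 and 3, the arrays with the most extreme Perp values, r was -0.83 for Mdm4, -0.68 for Fas, -0.63 for Ccng1 and 0.76 for Sesn1. Within the set of 6 arrays it was -0.65 for Mdm4 (permutation p = 0.182), -0.32 for Fas (permutation p = 0.451), -0.56 for Ccng1 (permutation p = 0.263) and 0.32 for Sesn1 (permutation p = 0.507). Spearman's rho in that set was -0.26 for Mdm4 (permutation p = 0.658) and -0.49 for Fas (permutation p = 0.356). It was -0.60 for Ccng1 (permutation p = 0.242) and 0.66 for Sesn1 (permutation p = 0.175). The set of 4 is too small for an r of its own. The genes brighter than the median whose profile was most like that of Perp were Zfp410 (r = 0.93, and 0.86 in the set of 6), Dnajb1 (0.91, and 0.83 in the set of 6) and Ap4s1 (0.90, and 0.81 in the set of 6), none of them a member of the p53 lists. They were picked for the highest r over all arrays, which include the set of 6, so r in that set is no separate check. The smallest adjusted permutation p for r over all genes was 0.518. Ap4s1 itself had a difference of -0.81 between the genotypes.

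**Figure D3:**
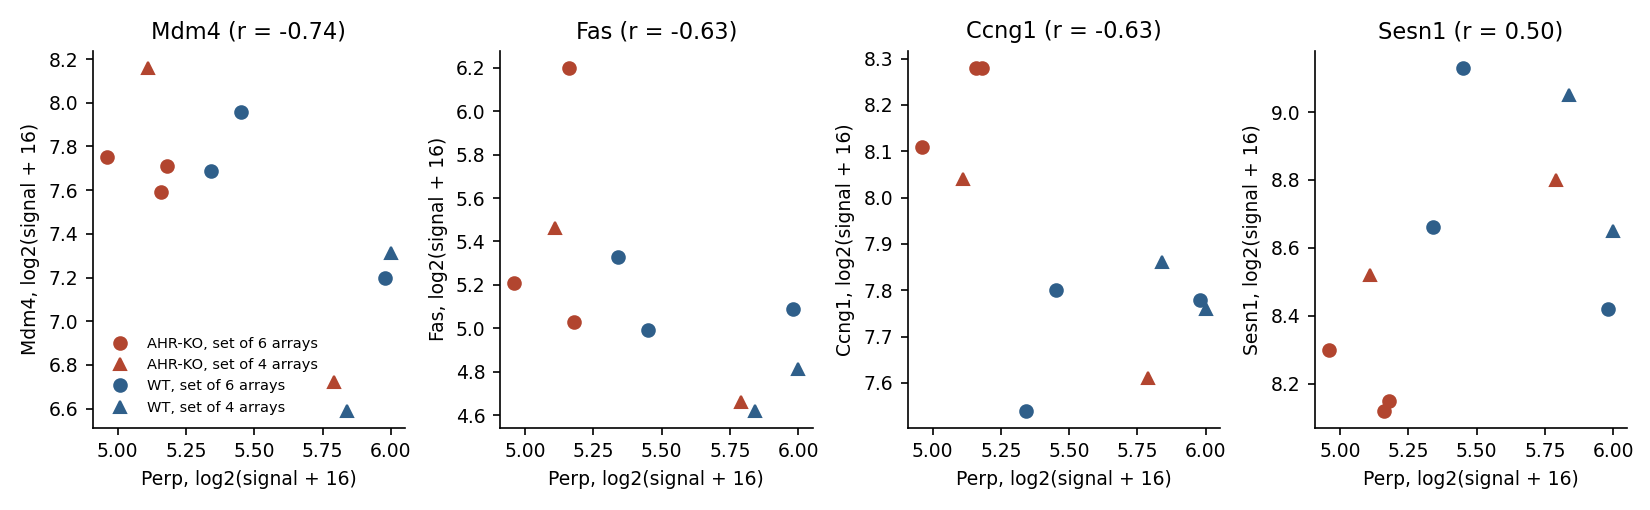
Log2(signal + 16) of Perp (x axis) against Mdm4, Fas, Ccng1 and Sesn1 (y axes, 1 panel each) in the 10 arrays, AHR-KO in red and WT in blue, triangles for the set of 4 and circles for the set of 6. Mdm4, Fas and Ccng1 have lower values where Perp is higher, with r of -0.74, -0.63 and -0.63, and Sesn1 has higher values there, with r of 0.50.

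The wider p53 program was likewise divided. Of 32 other p53 targets measured, 13 were higher and 19 lower, 1 passed the study threshold, and 2 had an unadjusted p under 0.05, with a median difference of -0.011. Of all genes, 48.9% were lower, 0.523% passed the study threshold and 3.74% had an unadjusted limma p under 0.05. The target that passed was Cdkn1a, the cyclin-dependent kinase inhibitor p21, among 11 arrest genes of which 5 were higher and 6 lower. Cdkn1a read 7.37, 7.02, 7.09, 6.80 and 7.44 in AHR-KO, against 6.51, 6.52, 6.93, 6.13 and 6.10 in WT. Only AHR-KO replicate 4 lay within the WT range. The difference was 0.71 (SE 0.18, 1.63-fold higher, limma p = 0.00211, exact permutation p = 0.0159, adjusted p = 0.998), opposite in sign to Perp. It fell short of 1.5-fold at pseudocount 64 (0.49), with array weights (0.57) and within the set of 6 (0.58). Ckap2, a spindle protein of the same list picked out after its values were seen, was lower by a log2 difference of -0.45 (limma p = 0.0133, exact permutation p = 0.0317).

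Of 12 other apoptosis genes, 3 were higher and 9 lower and none had an unadjusted p under 0.05, with a median of -0.036. The extremes were Eda2r, a TNF-receptor family member, at 0.22, and Aen, an apoptosis-enhancing nuclease, at -0.28. In the 9 repair and metabolism genes, 5 were higher and 4 lower, between Polk, a translesion polymerase, at 0.34 and Ddit4, an inhibitor of mTORC1, at -1.05. Ddit4 did not pass (limma p = 0.0708, exact permutation p = 0.143), and its values in AHR-KO spread over 4.07 to 7.69. It passed the study threshold at -1.58 when AHR-KO replicate 2 was left out, at -1.27 when WT replicate 2 was, at -1.02 with array weights and at -0.98 within the set of 6.

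**Figure D4:**
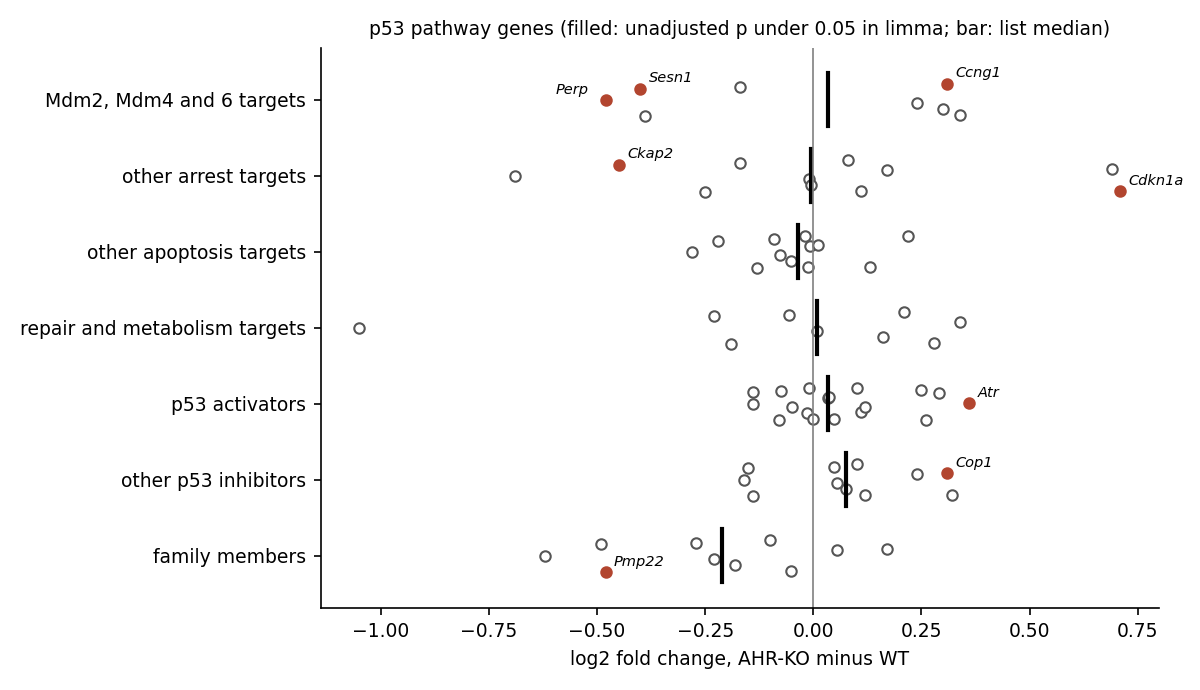
Difference between AHR-KO and WT (log2, x axis) of every measured gene in the member list and in 6 further p53 lists (rows), 1 dot a gene, filled where the unadjusted limma p is under 0.05, with the median of each list as a bar. The dots lie on both sides of 0 in each list, and the family list has the lowest median at -0.21.

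Upstream of p53, 18 activators gave 10 higher and 8 lower, with a median of 0.035. Atr, a kinase of the replication stress response, had the largest difference at 0.36 (SE 0.11, limma p = 0.00873, exact permutation p = 0.0238), but its other probe set gave -0.23 (limma p = 0.355 on that probe set). Trp53bp1, a damage-site adaptor, had the lowest at -0.14. Of 11 other inhibitors, 8 were higher and 3 lower, with a median of 0.076, between Rchy1, an E3 ligase for p53, at 0.32 and Ppp1r13l (iASPP) at -0.16. Cop1, another E3 ligase for p53 picked out after its values were seen, was at 8.67 ± 0.13 in AHR-KO and 8.36 ± 0.06 in WT (SD, n = 5 each). The Cop1 difference was 0.31 (limma p = 0.00991, adjusted p = 0.998, exact permutation p = 0.00794, the smallest this design allows). Every AHR-KO array lay above every WT array, and 0.681% of all genes likewise had groups without overlap.

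Relatives of the members were lower in 8 of 10 cases, against 48.9% of all genes, with a median of -0.21. They ranged over Gadd45g at 0.17 to Gadd45b at -0.62, both relatives of the growth arrest gene Gadd45a, and Gadd45b was at -0.091 without AHR-KO replicate 1. Ccng2, the sister gene of Ccng1, was at -0.49 (limma p = 0.104, exact permutation p = 0.214), opposite in sign to Ccng1. It passed the study threshold at -0.64 without AHR-KO replicate 4 and at -1.19 within the set of 4, where Ccng1 was at 0.0099. Ccng2 was at -0.25 without AHR-KO replicate 1 and at -0.018 within the set of 6, where Ccng1 was at 0.52. Pmp22, the myelin protein after which the family of Perp is named, was picked out after its values were seen. It read 4.73, 4.96, 4.62, 4.68 and 4.83 in AHR-KO, against 5.34, 5.23, 4.99, 5.13 and 5.53 in WT, without overlap, which was so for 0.681% of all genes. The difference was -0.48 (SE 0.12, limma p = 0.00229, exact permutation p = 0.00794, adjusted p = 0.998), on a probe set that was dim in both groups. Pmp22 passed the study threshold with the fold of mean signals (-0.99), at pseudocount 1 (-0.92) and within the set of 4 (-0.59). The other measured members of that family, Emp1, Emp2 and Emp3, were at -0.27, -0.10 and -0.18. None had a limma p under 0.05, while Emp3 had an exact permutation p of 0.0238 and a p of 0.0185 by the methods' test. A second probe set of Emp1 gave 0.077.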

How the data were processed

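Per the labels and the deposited table, each array has 1 linear intensity per probe set. Affymetrix Expression Console is named in the submitters' processing notes. The methods, written for the conditional knockout arrays, describe IterPLIER signals, background-subtracted and quantile-normalized. The version, genome build and filters were not given in the sources used here. All 10 arrays share a median of 24.65 and a maximum of 38558, so a change common to most genes cannot be seen. Precision is limited by the number of arrays, which have no read depth.

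The platform annotation listed 1 symbol for 23521 of 41345 probe sets, several for 1820 and none for 16004. For 1082 genes with several probe sets, the one with the highest mean was kept, which gave 22180 genes without a filter on level. Values were taken as log2(signal + 16). Groups were compared with limma 3.58.1 (R 4.3.3), adjusted by Benjamini-Hochberg over all genes, and by two-sided exact permutation over 252 splits, which cannot give a p under 0.00794. Correlations used 100000 permutations (scipy 1.17.1), adjusted over all genes. The scripts were tested on simulated data.

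Named genes are the members, of each p53 list the genes past the study threshold or else the extremes, and the 3 genes most like Perp. Others (Pmp22, Emp1, Emp2, Emp3, Cop1, Ckap2, Sesn3, Ccng2, Plk2, Col1a2 and Kdr) were added after their values were seen. The methods state an adjustment of the array p-values without naming it, and the study threshold is used here with unadjusted p. Members and lists were chosen with earlier results of these data known. Alternatives were other pseudocounts, a level filter, probe-set means, linear means, another variance model, array weights, the methods' t-test, a replicate block, the array sets and each array left out.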

Additional observations from a re-analysis of the deposited data

Results flagged for a closer look

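Of 62 combinations of a gene and a group (31 genes), 4 held an array far from the other 4 of its group, where chance alone marks about 1 in 20. The share flagged was close to that rate. Many of these genes were picked as extremes, for likeness to Perp or after their values were seen, so the rate is only a rough guide. Perp in AHR-KO replicate 2 was the highest of its group at 5.79, against 4.96 to 5.18 in the other AHR-KO arrays, a gap of 0.73 of the range of the group. The same array was the highest of its group for Plk2, at 6.21 against 4.52 to 4.91 (a gap of 0.77 of the range), and for Dnajb1, at 8.16 against 7.80 to 7.86 (0.83 of the range). Dnajb1 had been named for its likeness to Perp. Gadd45b in AHR-KO replicate 1 was the lowest of its group at 4.03, against 6.48 to 6.89 in the other AHR-KO arrays, a gap of 0.85 of the range, and its difference was -0.091 without that array.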

How the results depend on the processing

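The Perp difference stayed negative under every alternative run. It was -0.74 from linear means and -0.74 at pseudocount 1, both beyond the study threshold, -0.23 at pseudocount 64, and -0.62 to -0.41 with an array left out. Members past the threshold numbered 1 from linear means, 1 at pseudocount 1, 2 within the set of 4 arrays (Zmat3 and Sesn2) and 0 to 1 with an array left out. Members at an unadjusted p under 0.05 numbered 1 at pseudocount 1 and 0 to 3 with an array left out (0 without AHR-KO replicate 4, 1 without WT replicate 3 or WT replicate 4). Genes past the threshold numbered 429 from linear means, 75 by the methods' t-test, 71 among genes above the median level, 574 at pseudocount 1, 16 at pseudocount 64, 331 within the set of 6, 845 within the set of 4, and 99 to 230 with an array left out. The sign turned for Zmat3 (-0.24), Ppp1r13l (0.14) and Gadd45g (-0.032) within the set of 6, for Trp53bp1 (0.16), Sesn3 (0.34), Emp1 (0.74) and Emp2 (0.11) within the set of 4, and at one end of the range with an array left out for Ppp1r13l (-0.35 to 0.033) and Emp2 (-0.21 to 0.047). It also turned for the correlation of Zmat3 with Perp (0.32 in the set of 6, 0.21 over group deviations) and of Sesn2 (-0.27 over group deviations). The cause was not tested. Same-numbered replicates deviated together in 3 of 5 pairs only (correlations -0.197 to 0.352). Those pairs, of replicates 1, 3 and 4, lie within 1 array set each, and pairs 2 and 5 are split between the sets. The check therefore cannot tell whether the numbers pair the arrays. With the replicate block Perp was at -0.48, at an unadjusted limma p of 0.0429, and 152 genes passed the threshold. No value came from other probe sets of members, which have 1 each, nor for Perp and Fas under the level filter.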

Other observations

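Among stress-inducible genes of the p53 lists, chosen after their values were seen, arrays of 1 group were far apart. Ddit4 read 4.07, 7.69, 5.32, 5.69 and 5.17 in AHR-KO replicates 1 to 5 and 6.87, 5.79, 6.73, 6.60 and 7.22 in WT replicates 1 to 5. Plk2, a stress-induced kinase, read 4.68, 6.21, 4.91, 4.73 and 4.52 in AHR-KO and 6.39, 5.93, 4.66, 5.18 and 6.33 in WT, a difference of -0.69 (limma p = 0.101, exact permutation p = 0.159) that passed the study threshold at -0.99 without AHR-KO replicate 2, at -0.95 without WT replicate 3 and with the array set as a block. AHR-KO replicate 2, the array highest in Perp within its group, was also the highest of its group in Ddit4 and Plk2. AHR-KO replicate 1 lay near the floor of the scale in Ddit4, with a signal of 0.767, and in Gadd45b, with a signal of 0.369. Plk2 was dim, with a mean of 5.36 against 5.50 at the 95th percentile of olfactory-receptor genes.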
